A study of Mus musculus with 9 samples.

Results

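The genes described here are 9 ubiquitin ligases that have been linked to muscle wasting: Fbxo32, Trim63, Fbxo30, Fbxo21, Fbxo31, Fbxo40, Cblb, Nedd4 and Traf6. They were found by their symbols in the deposited table of raw counts, as 9 of its 56791 genes, and each passed the filter on low counts that left 17534 genes to be tested. RNA was sequenced from the gastrocnemius, a calf muscle of mostly fast fibres, of female mice in 9 libraries. The 3 young vehicle and 3 aged vehicle libraries came from mice given saline, and their titles hold 3M and 23M. The 3 aged GB libraries came from aged mice given ginkgolide B (GB), a terpene lactone of the ginkgo tree that blocks the platelet activating factor receptor, at 12 mg per kg body weight. All groups, young mice included, were gavaged daily for 2 months. The strain is not given in the sources used here, the GB titles hold no age, and nothing in the labels ties libraries to individual mice, so the p-values below reflect spread between libraries that may be technical.

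A ubiquitin ligase is the enzyme that selects a protein for tagging with ubiquitin, and tagged proteins are commonly sent to the proteasome. F-box proteins such as Fbxo32 (atrogin-1) are the substrate-binding part of SCF ligases, which also hold Skp1, Cul1 and Rbx1, while RING proteins such as Trim63 (MuRF1) and HECT proteins such as Nedd4 act without an F-box. Fbxo32 and Trim63 are the classic markers of atrophy: they are induced in denervated, fasted and glucocorticoid-treated muscle, where forkhead (FoxO) factors drive their transcription and insulin signalling through Akt restrains it.

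RefSeq promoter windows (GRCm38.p6, from 250 bases before to 50 after a gene start) were matched for 8 of the 9 genes, with 10 windows in all. Fbxo32 was not matched. Printed 5′ to 3′ are the windows of Trim63, the gene with the highest mean level per length in every group, at chr4:134314870-134315169, of Cblb, the gene called with age, at chr16:52031299-52031598, and of Fbxo30 at chr10:11281337-11281636 and Traf6 at chr2:101678170-101678469, whose calls with GB held under every alternative. All 4 are on the plus strand, and capitals mark matches to the motifs searched.
Trim63: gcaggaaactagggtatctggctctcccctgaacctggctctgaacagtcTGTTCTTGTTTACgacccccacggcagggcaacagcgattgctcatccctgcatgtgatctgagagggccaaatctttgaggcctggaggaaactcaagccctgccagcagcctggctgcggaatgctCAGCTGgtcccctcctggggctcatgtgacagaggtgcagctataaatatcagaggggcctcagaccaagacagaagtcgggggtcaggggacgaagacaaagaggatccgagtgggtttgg
Cblb: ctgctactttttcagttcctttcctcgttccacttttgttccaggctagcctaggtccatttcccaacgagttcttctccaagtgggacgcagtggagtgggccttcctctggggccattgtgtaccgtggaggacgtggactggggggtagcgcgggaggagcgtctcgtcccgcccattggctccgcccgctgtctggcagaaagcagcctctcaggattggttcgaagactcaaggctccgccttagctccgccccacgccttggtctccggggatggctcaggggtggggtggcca
Fbxo30: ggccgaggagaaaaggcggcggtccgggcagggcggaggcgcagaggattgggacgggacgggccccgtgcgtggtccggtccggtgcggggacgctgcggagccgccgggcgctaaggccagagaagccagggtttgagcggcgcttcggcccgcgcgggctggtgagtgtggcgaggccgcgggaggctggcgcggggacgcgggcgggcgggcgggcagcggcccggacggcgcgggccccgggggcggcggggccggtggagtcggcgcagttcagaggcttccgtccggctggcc
Traf6: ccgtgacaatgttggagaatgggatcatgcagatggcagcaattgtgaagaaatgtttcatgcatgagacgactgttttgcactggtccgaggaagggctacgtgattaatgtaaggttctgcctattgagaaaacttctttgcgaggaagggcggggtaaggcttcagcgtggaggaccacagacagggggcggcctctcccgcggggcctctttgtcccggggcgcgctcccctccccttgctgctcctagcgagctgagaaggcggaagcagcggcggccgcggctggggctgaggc
The first run of capitals in the Trim63 window holds 2 adjoining matches that do not overlap, both on the minus strand. AGAACA, a single arm of the glucocorticoid receptor element, matched bases 51 to 56, and the forkhead motif GTAAACA matched bases 57 to 63, counted from the 5′ end of the window. The second run is CAGCTG, an E-box, at bases 179 to 184. On either strand GTAAACA was in 3.65% of the 32851 windows of the table and in the Trim63 window alone among the 10. AGAACA was in 19% of all windows and in windows of Trim63, Fbxo40 and Nedd4, and CAGCTG was in 16.3% and in windows of the same 3 genes. The full glucocorticoid element is AGAACA followed by its reverse complement after 3 bases. It (0.00913% of windows) and the kappa B site of NF-kB (0.155%) had no exact match in the 10. The Trim63 window missed the full element only by its first letter, with tgaaca in place of AGAACA 3 bases before TGTTCT. The windows also differed in base composition: GC content was 57% for Trim63, 59.3% for Traf6, 61.3% for Cblb and 79.7% for Fbxo30, against a median of 52.7% over all windows. A match describes the letters of the window and is no evidence of binding.

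Library totals were 39478427 to 44294097 counts with GB and 51543383 to 61680520 with vehicle. GB libraries differed from vehicle ones well beyond the ligases. Mitochondrially encoded genes took 24.3 to 26.1% of their counts, against 13.9 to 15.3% in the aged and 8.60 to 10.2% in the young vehicle group, and the median log2 fold change against aged vehicle ran from 1.06 for genes of up to 500 bases to -0.67 for genes over 8000 bases. Preparation and treatment cannot be told apart, since no batch is named in the labels and no GB library is untreated. All 12 markers of skeletal muscle fibres were present in every group, with summed levels of 155400 to 165500 CPM (counts scaled to library size with TMM factors) in young vehicle, 112500 to 129100 in aged vehicle and 183100 to 214300 in GB libraries. The 12 did not all move the same way. With age 1 was called higher and 5 lower, beside 4.32% and 4.28% of all genes tested. With GB against aged vehicle 6 were called higher and 3 lower, beside 24.4% and 28.8%. The RNA came from whole tissue, in which fewer cells of a type and less RNA per cell cannot be told apart.

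The 9 genes fell into an abundant and a scarce set. On a scale per length (RPKM, CPM per kilobase of the table's length column), Trim63, Fbxo40, Fbxo32, Fbxo31 and Nedd4 lay between the 88.4 and 99.3 percentiles of the genes tested in each library, and Fbxo30, Fbxo21, Traf6 and Cblb between the 39.9 and 67.2 percentiles. In young vehicle libraries the mean levels were 80.3 RPKM for Trim63, 72.0 for Fbxo40 and 68.3 for Fbxo32, and the ranges of these 3 overlapped. Fbxo31 at 38.5 and Nedd4 at 33.2 RPKM followed without overlapping each other, and both lay inside the wide range of Fbxo32 (19.7 to 93.1 RPKM). Among the scarce genes Fbxo30 (2.55 RPKM), Traf6 (2.55) and Fbxo21 (2.37) overlapped, and Cblb (1.34) lay below them. In aged vehicle libraries the 5 abundant genes did not overlap, at mean levels of 124 RPKM for Trim63, 69.7 for Fbxo40, 46.5 for Fbxo32, 38.1 for Fbxo31 and 31.2 for Nedd4, although the lowest Trim63 library (75.9) was close to the highest Fbxo40 library (74.8). With GB the order was Trim63 at 208, Fbxo40 at 75.4, Fbxo32 at 65.0, Fbxo31 at 32.6 and Nedd4 at 17.5 RPKM, and only Fbxo40 and Fbxo32 overlapped. The scarce genes in aged vehicle libraries overlapped from Fbxo30 (3.37 RPKM) through Fbxo21 (2.86) and Traf6 (2.77) to Cblb (2.14). With GB they ran from Fbxo21 (2.84) to Fbxo30 (1.87), Cblb (1.67) and Traf6 (1.14), of which only Fbxo30 and Cblb overlapped.

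**Figure D1:**
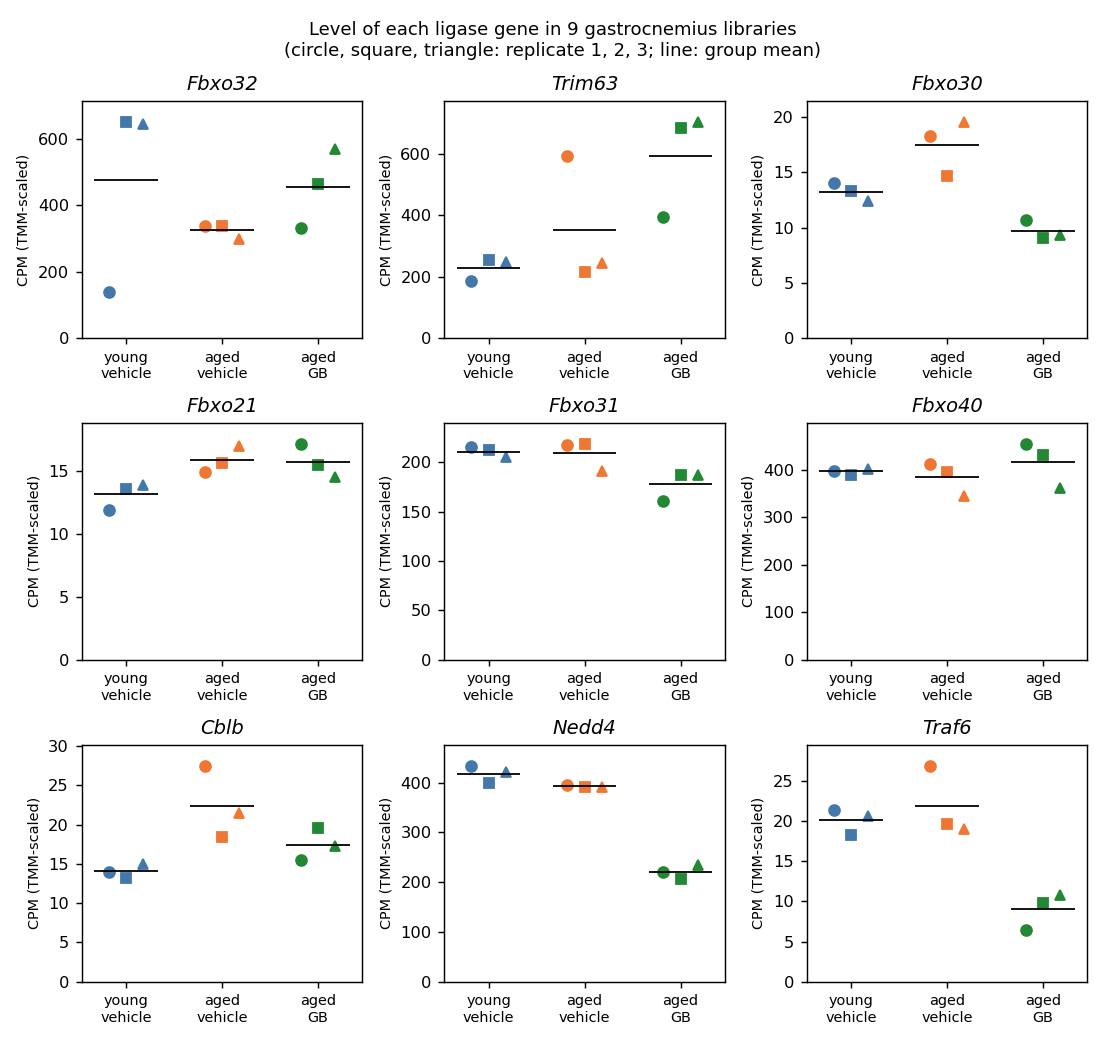
Level of each of the 9 ligase genes (y axis, TMM-scaled CPM from 0) by group (x axis: young vehicle, aged vehicle, GB; 3 libraries each); each point is a library, its shape the replicate number and the line the group mean. Fbxo32 in young replicate 1 (137 CPM) and Trim63 in aged replicate 1 (593 CPM) lie far from the others of their groups, while Nedd4 and Traf6 are lower in all 3 GB libraries than in any vehicle library.

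Ageing under vehicle was the first contrast of the series. Of the 9 ligase genes only Cblb passed the test, and it rose. Fbxo32 and Trim63 did not pass, and their log2 fold changes had opposite signs. The call of 1 of 9 stands beside 8.6% of all genes tested, of which 4.32% were higher and 4.28% lower, so the count is near the background. Over all genes the number called was 1508, and it was 866 and 749 without young replicate 2 or 3 and 935 and 823 without aged replicate 2 or 3. The aged and young libraries did not overlap for 4 of the 9 genes, with Fbxo30, Fbxo21 and Cblb higher and Nedd4 lower, against 34.4% of all genes (17.5% higher, 16.9% lower).

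Treatment of aged mice was the second contrast. The F-box genes Fbxo30 and Fbxo31, the HECT ligase gene Nedd4 and the RING ligase gene Traf6 fell, and none of the 9 rose. Those 4 of 9 stand beside 28.8% of all genes tested that were lower and 24.4% that were higher, or 53.2% in either direction, so a call is common among all genes in this comparison. The same 4 genes were the ones whose GB and aged vehicle libraries did not overlap, against 59.7% of all genes (27.3% higher, 32.5% lower). Directions depend on the scaling here. With library totals alone the median over all genes went from -0.05 to -0.62 (log2), calls over all genes went from 4281 higher and 5045 lower to 2030 higher and 8421 lower, and 7 of the 9 ligase genes were lower and 0 higher, against 59.6% of all genes called. With an offset for each library's trend on gene length 2 of the 9 were lower, Fbxo30 and Traf6, and 1 was higher, Fbxo40, against 46.8% of all genes called. The comparison shares its aged vehicle libraries with the age comparison, so the values of both are set side by side and their directions are not independent.

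**Figure D2:**
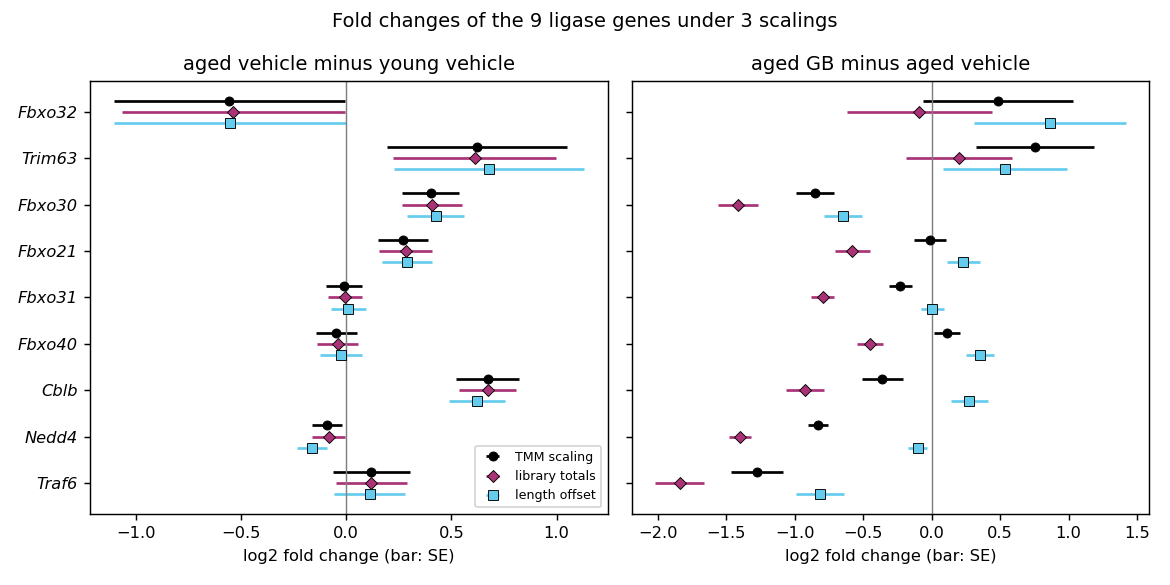
Log2 fold change of each ligase gene (x axis, bars are SE) for aged vehicle minus young vehicle (left) and aged GB minus aged vehicle (right), from edgeR with TMM scaling (circles), library totals (diamonds) and an offset for gene length (squares). The 3 scalings lie close together in the age comparison and apart in the GB comparison, where Nedd4 goes from -0.83 to -0.10 with the length offset.

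Fbxo32, the F-box protein atrogin-1, which targets the translation initiation factor eIF3f and MyoD, differed more between libraries of the young group than between groups. It was at 137, 649 and 643 CPM in the young vehicle, 337, 337 and 298 in the aged vehicle and 329.8, 462 and 568 CPM in the GB libraries. Young replicate 1 was the lowest of all 9 libraries and young replicates 2 and 3 were the highest, so the young range enclosed the others. With age the log2 fold change was -0.56 (SE 0.55, edgeR adjusted p = 0.636). Without young replicate 1 it was -0.99 (SE 0.17, edgeR adjusted p = 0.004), which passed the test, and without any one of the other 5 vehicle libraries it was between -0.58 and -0.28 and did not. With GB the log2 fold change against aged vehicle was 0.48 (SE 0.55, edgeR adjusted p = 0.502). In a fit of only the aged vehicle and GB libraries, which leaves out the spread of the young group, it was 0.48 (SE 0.17) with an edgeR adjusted p of 0.034, and with library totals the value was -0.09. Over all alternatives the Fbxo32 value with GB against aged vehicle ran from -0.09 to 0.86.

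Young replicate 1 also differed from young replicates 2 and 3 in markers of other tissues. Its summed level was 47.7 CPM for 5 lymphocyte markers, against 0.885 and 0.763 CPM, and 38.97 CPM for 3 cardiac muscle markers, against 2.81 and 2.97 CPM. Keratinocyte markers went the other way, at 3.49 CPM over 4 genes against 72.4 and 54.9 CPM, and so did 7 fibroblast and tendon markers, at 929 against 1803 and 1807 CPM. Fibre markers summed to 155400 CPM in that library and to 162700 and 165500 CPM in the other two. The part of these differences in the low Fbxo32 value was not tested.

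Trim63, the RING ligase MuRF1 of the sarcomere, which tags thick filament proteins, was spread widely in the aged group. It was at 184, 252 and 248 CPM in the young vehicle, 593, 216 and 245 in the aged vehicle and 393, 682 and 702 CPM in the GB libraries. Aged replicate 1 lay within the GB range, and aged replicates 2 and 3 lay within the young range. With age the log2 fold change was 0.62 (SE 0.43, edgeR adjusted p = 0.467), and 0.01 without aged replicate 1. With GB against aged vehicle it was 0.75 (SE 0.43, edgeR adjusted p = 0.186). Without aged replicate 1 it was 1.35 (SE 0.26, edgeR adjusted p = 0.00272), while without any one of the other 5 libraries of that comparison it was 0.49 to 0.97 and did not pass. Limma-voom called it with all libraries (adjusted p = 0.043), as it did 53% of all genes. Over all alternatives, other scalings included, the Trim63 value with GB against aged vehicle ran from 0.20 to 1.35.

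Aged replicate 1 was the highest aged vehicle library for several other genes of the lists too. Cblb was at 27.4 CPM there against 18.4 and 21.4 CPM, and Traf6 at 26.8 against 19.7 and 19.0 CPM. Foxo1, a forkhead factor that activates Trim63 and Fbxo32, was at 94.4 CPM against 53.6 and 47.0 CPM. Klf15, a glucocorticoid-induced factor, was at 133 against 80.2 and 67.2 CPM, and Irs2, an insulin receptor substrate, at 82.5 against 22.3 and 29.6 CPM. Fbxo32 did not share the pattern, at 337 CPM in both aged replicates 1 and 2. These genes were singled out after their values were seen.

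The ratio of Trim63 to Fbxo32 per length separated neither age nor treatment fully. It was 3.29, 0.954 and 0.947 in young vehicle, 4.32, 1.57 and 2.02 in aged vehicle and 2.93, 3.62 and 3.03 in GB libraries. Trim63 was thus about level with Fbxo32 in young replicates 2 and 3 and above it in the other 7 libraries. The highest ratio was in aged replicate 1, through Trim63, and the young group's highest was in replicate 1, through Fbxo32. Together both genes made up 35.3, 54.9 and 54.0% of the summed level per length of the 9 ligases in young vehicle, 61.9, 44.9 and 48.0% in aged vehicle and 57.6, 69.2 and 72.3% in GB libraries. By the length column Trim63 has 2842 and Fbxo32 6976 bases. Against aged vehicle the median log2 fold change with GB was 0.187 over genes of 2000 to 4000 bases. It was -0.235 over genes of 4000 to 8000 bases. The part of this length trend in the ratios and shares was not tested.

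**Figure D3:**
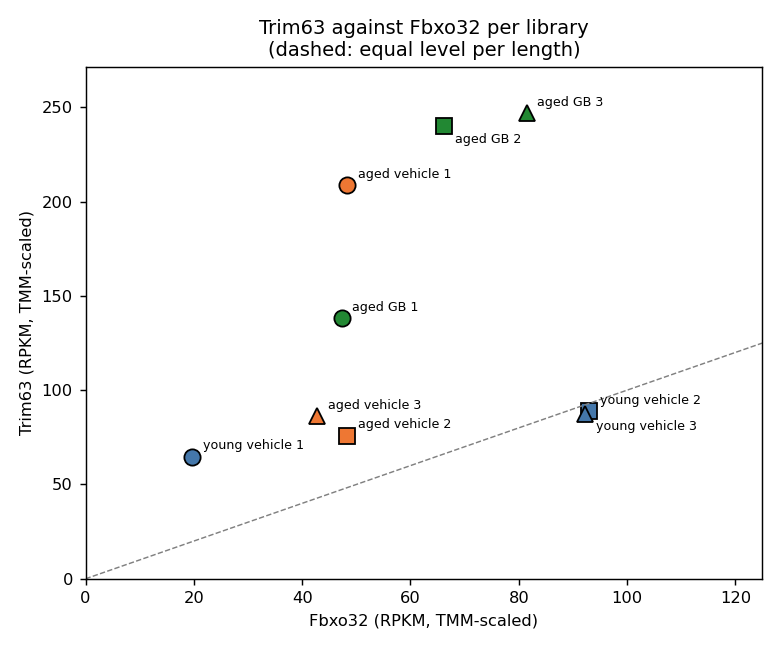
Trim63 (y axis) against Fbxo32 (x axis) in each of the 9 libraries, both in TMM-scaled RPKM; the dashed line marks equal levels per length. Young replicates 2 and 3 lie near the line at ratios of 0.954 and 0.947, and aged replicate 1 has the highest ratio, 4.32.

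Fbxo30, the F-box protein MUSA1, which is induced when bone morphogenetic protein signalling is lost in wasting muscle, fell with GB. It was at 14.1, 13.3 and 12.4 CPM in the young vehicle, 18.3, 14.7 and 19.5 in the aged vehicle and 10.7, 9.03 and 9.34 CPM in the GB libraries. The 3 groups did not overlap, with aged vehicle highest and GB lowest. Against aged vehicle the GB value was -0.85 (SE 0.14, edgeR adjusted p = 0.000213), and it was -0.65 (SE 0.14, edgeR adjusted p = 0.00203) with the length offset. With age it was 0.40 (SE 0.14, edgeR adjusted p = 0.0899) and did not pass, although DESeq2 called it (adjusted p = 0.0496), beside 13.7% of all genes.

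Fbxo21, the F-box protein SMART, which is needed for full atrophy after denervation, did not pass with TMM scaling in either comparison. It was at 12.0, 13.6 and 13.9 CPM in the young vehicle, 14.95, 15.7 and 17.0 in the aged vehicle and 17.2, 15.5 and 14.5 CPM in the GB libraries. The aged vehicle libraries were above all young ones, at a log2 value of 0.27 (SE 0.12, edgeR adjusted p = 0.195). The GB range enclosed the aged vehicle range, at a log2 value of -0.01 (SE 0.12, edgeR adjusted p = 0.941), which was -0.58 with library totals (edgeR adjusted p = 0.00173) and 0.23 with the length offset.

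Fbxo31, an F-box protein that targets cell cycle regulators, was one of the steadiest of the 9 under vehicle. It was at 215, 212 and 205 CPM in the young vehicle, 218, 218 and 191 in the aged vehicle and 160.5, 188 and 187 CPM in the GB libraries. All GB libraries were below all vehicle libraries by a small margin. On the log2 scale the GB value was -0.23 (SE 0.09, edgeR adjusted p = 0.0402), and with age it was -0.01 (SE 0.09, edgeR adjusted p = 0.959). The call with GB was lost without aged replicate 1 (edgeR adjusted p = 0.0893), aged replicate 2 (0.114) or GB replicate 1 (0.116), with upper-quartile factors (0.176), with a filter of 1 CPM in 3 libraries (0.0796) and in a fit of only the 2 groups (0.0551). With the length offset the value was 0.00 (edgeR adjusted p = 0.971).

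Fbxo40, a muscle-restricted F-box protein that targets the insulin receptor substrate IRS1, did not pass with TMM scaling in either comparison. It was at 399, 389.9 and 402 CPM in the young vehicle, 413, 395 and 345 in the aged vehicle and 454, 432 and 362 CPM in the GB libraries. The 3 groups overlapped. The log2 fold change was -0.05 with age (SE 0.10, edgeR adjusted p = 0.840) and 0.11 with GB (SE 0.10, edgeR adjusted p = 0.342). The scaling decided the direction with GB: the value was -0.45 with library totals (edgeR adjusted p = 0.0016) and 0.35 with the length offset (edgeR adjusted p = 0.012).

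Cblb, a RING ligase that targets IRS1 in unloaded muscle, rose with age. It was at 14.0, 13.2 and 14.998 CPM in the young vehicle, 27.4, 18.4 and 21.4 in the aged vehicle and 15.5, 19.6 and 17.3 CPM in the GB libraries. Every aged vehicle library was above every young one, and the GB libraries lay above the young and mostly below the aged ones. The log2 fold change with age was 0.67 (SE 0.15, edgeR adjusted p = 0.0157), and the call was lost without young replicate 2 (0.62, edgeR adjusted p = 0.0772) or aged replicate 1 (0.50, edgeR adjusted p = 0.0568). Against aged vehicle the GB value was -0.36 (SE 0.15, edgeR adjusted p = 0.0614), -0.92 with library totals (edgeR adjusted p = 8.31e-05) and 0.28 with the length offset (edgeR adjusted p = 0.114). Cblb was called lower with GB without aged replicate 2 (-0.50, edgeR adjusted p = 0.0196), without GB replicate 2 (-0.46, edgeR adjusted p = 0.0437) and with no filter on low counts (-0.43, edgeR adjusted p = 0.0159).

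Nedd4, a HECT ligase that targets the receptor Notch1 in denervated muscle, was nearly constant under vehicle and lower with GB. It was at 433, 399.6 and 422 CPM in the young vehicle, 396, 392 and 391 in the aged vehicle and 219.8, 207 and 235 CPM in the GB libraries. The coefficient of variation within the aged vehicle group was 0.695%, and the aged libraries were all just below the young ones. The log2 fold change was -0.09 with age (SE 0.07, edgeR adjusted p = 0.517) and -0.83 with GB (SE 0.07, edgeR adjusted p = 1.05e-06). Nedd4 is the longest of the 9 by the table's length column, at 12601 bases, and with the length offset its GB value was -0.10 (SE 0.07, edgeR adjusted p = 0.258), so the call was lost.

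Traf6, a RING ligase that joins ubiquitin chains in signalling to NF-kB and autophagy, had the largest fold change of the 9 with GB. It was at 21.4, 18.2 and 20.7 CPM in the young vehicle, 26.8, 19.7 and 19.0 in the aged vehicle and 6.39, 9.84 and 10.8 CPM in the GB libraries. All GB libraries were below all vehicle libraries, and the vehicle groups overlapped. On the log2 scale the GB value was -1.28 (SE 0.19, edgeR adjusted p = 0.000121), and -0.82 (SE 0.18, edgeR adjusted p = 0.00214) with the length offset, at a table length of 7883 bases. With age it was 0.12 (SE 0.18, edgeR adjusted p = 0.772).

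**Figure D4:**
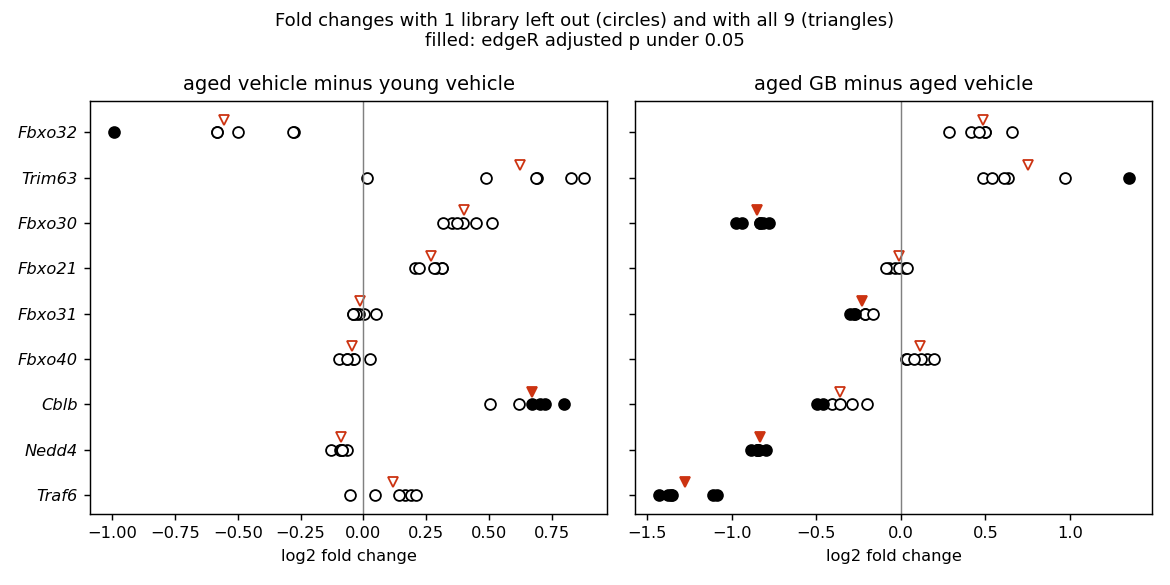
Log2 fold change of each ligase gene (x axis) with all 9 libraries (triangles) and with each library of the comparison left out in turn (circles); filled symbols have an edgeR adjusted p under 0.05. The age call of Cblb and the GB call of Fbxo31 depend on single libraries, Fbxo32 with age and Trim63 with GB pass without 1 library each, Cblb with GB passes without aged replicate 2 or GB replicate 2, and Fbxo30, Nedd4 and Traf6 stay filled throughout with GB.

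Set against young vehicle, a comparison outside the series design that shares both groups with the others, the GB libraries had 1 ligase gene higher and 4 lower, beside 53.6% of all genes called (24.7% higher, 29% lower). Their libraries did not overlap for 7 of the 9, with 3 higher and 4 lower, against 60.7% of all genes (27.5% higher, 33.2% lower). The split depended on the scaling here too: 3 were higher and 2 lower with the length offset, against 48.8% of all genes called, and 0 higher and 5 lower with library totals, against 60.7%. Trim63 was higher by 1.38 on the log2 scale (SE 0.44, edgeR adjusted p = 0.0327), with all 3 GB libraries above all young ones. That call was lost without any one of the 3 young libraries or without GB replicate 2 or 3 (edgeR adjusted p of 0.069 to 0.0977). It was also lost for Trim63 with the length offset (1.22, edgeR adjusted p = 0.0659), with library totals (0.81, edgeR adjusted p = 0.11) and with no filter on low counts (edgeR adjusted p = 0.0807). Traf6 had -1.16 (SE 0.19, edgeR adjusted p = 0.000263), Nedd4 -0.92 (SE 0.07, edgeR adjusted p = 3.98e-07) and Fbxo30 -0.45 (SE 0.14, edgeR adjusted p = 0.0151, and 0.203 with the length offset). Fbxo31 had -0.24 (SE 0.09, edgeR adjusted p = 0.0318), a call lost without young replicate 1 (0.0665), young replicate 2 (0.0606) or GB replicate 1 (0.0922), with upper-quartile factors (0.0614) or a filter of 1 CPM in 3 libraries (0.0591), and its value was 0.01 with the length offset. Cblb was 0.31 (SE 0.15, edgeR adjusted p = 0.1) and 0.90 (edgeR adjusted p = 0.000151) with the length offset, which also called Fbxo21 (0.52, edgeR adjusted p = 0.00317) and Fbxo40 (0.33, edgeR adjusted p = 0.0166) higher.

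The nearest relatives of 4 of the ligases were followed as well. With age none of the 5 paralogs passed the edgeR test, and none had an unadjusted p under 0.05. They were Fbxo25, the relative of Fbxo32, at 9.37 CPM (young) and 9.39 CPM (aged), Trim54 and Trim55, the other MuRF proteins, at 178 and 71.4 CPM (young) and 171.5 and 66.9 CPM (aged), Cbl at 19.4 CPM (young) and 21.6 CPM (aged) and Nedd4l at 26.0 CPM (young) and 28.3 CPM (aged). DESeq2 called 0 of them, beside 13.7% of all genes, and limma-voom 0, beside 12%. With GB Cbl, Trim55 and Nedd4l fell, 3 of the 5, beside 53.2% of all genes called (24.4% higher, 28.8% lower). Cbl had -1.60 on the log2 scale (SE 0.12, edgeR adjusted p = 2.88e-07), Trim55 -1.32 (SE 0.12, edgeR adjusted p = 1.47e-06) and Nedd4l -0.87 (SE 0.13, edgeR adjusted p = 0.000107), the last turning to 0.08 with the length offset. Trim54 at -0.01 and Fbxo25 at -0.04 did not pass, and Trim54 had -0.68 (edgeR adjusted p = 0.000266) with the length offset.

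Among 20 other ubiquitin ligases of muscle, 1 rose and 2 fell with age, beside 4.32% of all genes higher and 4.28% lower. Their median log2 fold change was 0.02 against 0.00 over all genes. Siah1a, a RING ligase, rose from 9.44 ± 1.08 to 20.1 ± 6.56 CPM (SD, 3 libraries each). Trim72, the membrane repair protein MG53, fell from 183 ± 5.63 to 101 ± 6.06 CPM, and Fbxl22, an F-box protein of the Z-disc, fell from 8.21 ± 0.827 to 4.59 ± 0.744 CPM. With GB 4 rose and 10 fell, beside 24.4% of all genes higher and 28.8% lower, with a median of -0.16 against -0.05 over all genes. Znrf3 and Smurf1 had log2 fold changes of -1.72 and -1.10, while Fbxl22 had 1.64, from 4.59 ± 0.744 to 14.3 ± 1.39 CPM.

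Of 24 genes of the SCF core, ubiquitin activation and conjugation, 1 rose and 1 fell with age, beside 8.6% of all genes called. Their median log2 fold change was 0.04. Ube2j1, a conjugating enzyme of the endoplasmic reticulum, rose by 0.68 (SE 0.13), and Ube2d1, a conjugating enzyme used by many RING ligases, fell by 0.51 (SE 0.13). Leaving out young replicate 2 or 3, or aged replicate 1 or 3, ended the Ube2d1 call (edgeR adjusted p of 0.09 to 0.116). With GB 13 rose and 5 fell, beside 24.4% of all genes higher and 28.8% lower, with a median of 0.37. Nedd8, the ubiquitin-like activator of cullins, went from 40.6 ± 1.56 to 133 ± 15.3 CPM, a log2 fold change of 1.71 that was 0.98 with the length offset. Rps27a, which encodes ubiquitin fused to a ribosomal protein and has near-identical pseudogene copies, had 1.89 (SE 0.22) and is uncertain for that reason. Ube2e1, a conjugating enzyme, and Uba6, an activating enzyme, had -2.08 and -1.49. With the length offset 13 rose and 5 fell, beside 46.8% of all genes called.

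Of 8 deubiquitinase genes edgeR, DESeq2 and limma-voom each called 0 with age, beside 8.6%, 13.7% and 12% of all genes. Of the 8, 0 had an unadjusted edgeR p under 0.05. With GB 3 rose and 3 fell, beside 53.2% of all genes called. Uchl1 had a log2 fold change of 1.65 with GB (1.04 with the length offset), Usp1 -1.29, Usp19, whose product has been linked to muscle wasting, -1.16 and Cyld -0.97. The Cyld value was -0.25 with the length offset (edgeR adjusted p = 0.0636).

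Of 20 genes of transcriptional regulators listed as possible inputs to the ligases, 4 rose and 1 fell with age, beside 8.6% of all genes called. The median log2 fold change of the list was 0.03. Foxo1 was at 19.8, 16.5 and 16.9 CPM in the young vehicle, 94.4, 53.6 and 47.0 in the aged vehicle and 40.7, 57.2 and 61.4 CPM in the GB libraries. All aged libraries, GB included, were above all young ones, and the log2 fold change with age was 1.87 (SE 0.26, edgeR adjusted p = 0.00268). Foxo3, the other main forkhead factor of atrophy, had 0.77 with age (SE 0.11, edgeR adjusted p = 0.00141). It was at 38.6, 32.9 and 36.0 CPM in the young and 72.0, 56.4 and 54.8 in the aged vehicle libraries. In the GB libraries, given here beside those of Foxo1, Foxo3 was at 30.5, 32.8 and 32.4 CPM. Its log2 fold change with GB against aged vehicle was -0.94 (SE 0.11, edgeR adjusted p = 1.91e-05). Dach2, a repressor in the denervation pathway, rose by 1.27 (SE 0.24, edgeR adjusted p = 0.00578). Klf15 rose by 0.88 (SE 0.23, edgeR adjusted p = 0.045), a call lost without any one of the 3 young libraries or aged replicate 2 (edgeR adjusted p of 0.0617 to 0.133), with no filter on low counts (0.171), in a fit of only the 2 groups (0.0786) and with the length offset (0.0544). Its value was 0.50 with both vehicle replicates 1 left out, an alternative chosen after seeing the data. The gene that fell was Foxo4, by 0.49 (SE 0.10, edgeR adjusted p = 0.0102), a call lost without aged replicate 2 (0.0571) or 3 (0.0608). With GB 1 of the 20 rose and 11 fell, beside 24.4% of all genes higher and 28.8% lower, with a median of -0.69. With the length offset 3 rose and 9 fell, beside 46.8% of all genes called. Tfeb, a driver of lysosome genes, had a log2 fold change of 1.24, and Dach2 -2.42 (-1.81 with the length offset), Smad3, a mediator of myostatin signals, -1.41 and Nr3c1, the glucocorticoid receptor, -1.19.

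Of 15 tested upstream signalling genes (ligands, receptors, kinases, insulin receptor substrates and coactivators), 1 rose and 2 fell with age, beside 8.6% of all genes called. Ppargc1a, a coactivator that restrains the atrophy programme, rose by 0.69 (SE 0.16), and Igf1, an insulin-like growth factor, and Irs1, the substrate shared by Fbxo40 and Cblb, fell by 0.76 (SE 0.18) and 0.64 (SE 0.16). Irs1 was at 84.6, 97.0 and 108 CPM in the young vehicle, 49.7, 78.0 and 57.8 in the aged vehicle and 49.2, 40.9 and 52.3 CPM in the GB libraries. The aged vehicle libraries were all below the young ones. These 3 calls were each lost when single libraries were left out: Ppargc1a without young replicate 2 or aged replicate 2 or 3 (edgeR adjusted p of 0.0637 to 0.091), Igf1 without young replicate 1 or aged replicate 1 or 2 (0.0595 to 0.0758) and Irs1 without replicate 2 or 3 of the young or 1 or 3 of the aged group (0.0853 to 0.115). With GB 3 rose and 8 fell, beside 53.2% of all genes called. Ppargc1b, a relative of Ppargc1a, had a log2 fold change of -3.51 with GB, Acvr2b, the myostatin receptor, -2.17 and Tnfrsf12a, the TWEAK receptor of wasting muscle, 1.87. Irs2 had -1.48 (edgeR adjusted p = 0.0284), and -0.71 without aged replicate 1, with the call lost without GB replicate 1, 2 or 3 (0.0694 to 0.104).

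Of 18 sarcomere and signalling genes drawn up as candidate substrates of the ligases, 1 rose and 5 fell with age. This stands beside 4.32% of all genes higher and 4.28% lower, and the median log2 fold change of the list was -0.16. Mybpc1, the slow myosin binding protein C, rose by 0.78 (SE 0.15), while the fast form Mybpc2 fell by 0.63 (SE 0.12). The other genes that fell were Irs1 and Foxo4 and, named here to complete the count, the mitochondrial fusion gene Mfn2 and the fast troponin gene Tnnt3. With GB 8 rose and 6 fell, beside 53.2% of all genes called. Notch1, the Nedd4 target, was at 33.2 ± 9.82 in the aged vehicle and 3.20 ± 0.217 CPM in the GB libraries, a log2 fold change of -3.38 that was -2.57 with the length offset. Mybpc1 had -2.22, Dusp4, a phosphatase of MAP kinases, -2.55 and Prkag1, a subunit of AMP-activated protein kinase, 1.83.

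**Figure D5:**
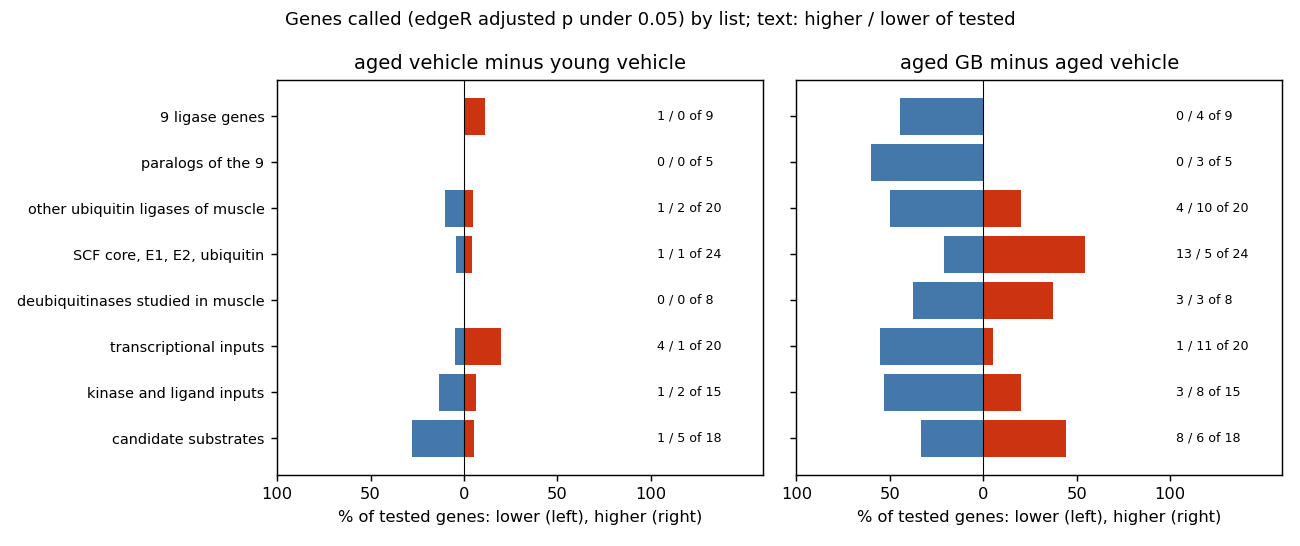
Share of the tested genes of each list called higher (right) or lower (left) with an edgeR adjusted p under 0.05, for aged vehicle minus young vehicle (left panel) and aged GB minus aged vehicle (right panel); the text gives the numbers higher and lower of those tested. The transcriptional inputs have 4 higher and 1 lower with age, beside 8.6% of all genes called. With GB they have 1 higher and 11 lower (3 and 9 with the length offset). The SCF core, E1, E2 and ubiquitin list has 13 higher and 5 lower with GB. These GB counts stand beside 24.4% of all genes higher and 28.8% lower. Both comparisons share the aged vehicle libraries.

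Markers of other cell types moved in the same comparisons. With age 3 of 8 endothelial, 4 of 6 smooth muscle and pericyte and 5 of 5 red blood cell markers rose. Those that fell with age were 3 of 7 fibroblast and tendon, 2 of 5 Schwann cell and 1 of 3 tested keratinocyte markers. So did 2 of 5 adipocyte markers, at a median log2 fold change of -0.74 for that list. These counts stand beside 4.32% of all genes higher and 4.28% lower with age. Summed endothelial levels were 426 to 451 CPM in the young vehicle, 630 to 650 in aged vehicle and 323 to 388 in GB libraries, and summed red blood cell levels were 232 to 515, 1158 to 2130 and 687 to 782 CPM in the same order. Smooth muscle and pericyte markers summed to 331 to 359, 654 to 758 and 399 to 441 CPM, macrophage markers to 77.6 to 78.7, 73.2 to 89.2 and 60.5 to 64.0 CPM, and adipocyte markers to 164 to 246, 230 to 250 and 504 to 625 CPM. With GB all 7 fibroblast and tendon and 6 of 8 endothelial markers fell, beside 28.8% of all genes lower. In that comparison 4 of 5 adipocyte markers and 1 endothelial marker rose, beside 24.4% of all genes higher. With the length offset 4 of 7 fibroblast and tendon and 5 of 8 endothelial markers fell with GB. Under that offset 3 of 5 adipocyte and 2 endothelial markers rose, beside 46.8% of all genes called. Krt5 and Krt14 of the keratinocyte markers were at 0 counts in aged vehicle libraries, and Krt5 and the cardiac gene Nppa were at 0 with GB. The part of these cell types in the ligase values was not tested.

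As a description over 9 libraries, with 11064 genes of at least 2 CPM compared and no p-value, the genes whose log2 levels were most like Fbxo32 were Angptl4 (Pearson r = 0.931), Car3 (0.919) and Slc43a1 (0.916). Angptl4, an inhibitor of lipoprotein lipase, was at 1.01, 36.5 and 31.2 CPM in young vehicle libraries, low in the same replicate 1 as Fbxo32, at 15.6, 9.14 and 7.52 in the aged vehicle and at 20.9, 35.3 and 23.6 CPM in the GB libraries. Over the 6 vehicle libraries Pofut2 (0.998) and Angptl4 (0.978) were among the 3 closest. Pofut2 ran only from 20.8 CPM in young replicate 1 to 23.8 CPM in young replicate 3. For Trim63 the closest were Pcif1 (0.977), Seh1l (0.969) and Atp9b (0.968) over 9 libraries and Rabl2 (0.993), Pcif1 (0.993) and Cebpz (0.990) over the vehicle libraries. The vehicle values lean on aged replicate 1, where Cebpz was at 26.3 CPM against 21.4 to 22.7 in the other vehicle libraries. Rabl2 was at 3.31 against 1.97 to 2.33 CPM, and Cebpz was at 8.93 to 11.3 CPM with GB. Fbxo32 and Trim63 themselves had r = 0.376 over 9 and 0.221 over 6 libraries. Among the 9 ligases the closest pair over all libraries was Nedd4 and Traf6 (0.922), with 0.0899 over the 6 vehicle libraries. The libraries share groups and depth in these correlations.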

How the data were processed

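Per the submitters' processing notes, the authors used FastQC, HISAT2, SAMtools and DESeq2 and the builds GRCm39 and mm10. No version, read counter, annotation or strand setting is given in the sources used here. The deposited values are raw counts per gene for 9 libraries, with a length column. Per the labels' protocols, TRIzol-purified RNA entered a KAPA mRNA kit. Counts were tested with edgeR 4.0.16 (R 4.3.3): filterByExpr (minimum count 10, minimum total 15), TMM factors, 1 quasi-likelihood fit of all 3 groups (robust=TRUE) and Benjamini-Hochberg adjustment over 17534 genes, calls at an adjusted p under 0.05, two-sided. SE is the absolute log2 fold change divided by the square root of F. Correlations used log2 CPM (prior count 2).

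Groups and replicate numbers came from titles. Replicates differed by more than sampling noise. Over the groups, pairs with replicate 1 had a chi-square per degree of freedom of 30.8 to 54.6, and replicates 2 and 3 had 15.2 to 17.1. Fbxo32, Fbxo31, Cblb and Nedd4 overlap other annotated genes (GENCODE M21), whose counts reached at most 363 in a library. Alternatives were other scalings, filters, DESeq2 1.42.0, limma-voom (limma 3.58.1), a lowess length offset (span 0.3), a replicate block and leaving out libraries. The procedure was checked on simulated counts. Outside the 9 genes and 5 paralogs, each list gave up to 4 genes per comparison, by the largest fold change among called genes of at least 2 CPM whose libraries did not overlap. Some genes that this rule names are not reported here. Members and lists were chosen with earlier results of these data known.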

Additional observations from a re-analysis of the deposited data

How the results depend on the processing

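Over the alternatives, the 9 ligase genes in 3 comparisons gave 432 values with the same direction and call, 34 that lost a call, 20 that gained one and 27 of opposite sign. Each group held 3 libraries, and the part of depth in the precision was not tested. With age the genes called numbered 2410 with DESeq2 and 650 at an adjusted p under 0.01, and 749 to 1456 with a library left out; ligase calls, 1 in the report, numbered 2 with DESeq2, 0 at an adjusted p under 0.01 and 0 to 2 with a library left out. Of the upstream signalling genes edgeR called 3, DESeq2 6 and limma-voom 7, beside 8.6%, 13.7% and 12% of all genes. With GB against aged vehicle ligase calls numbered 7 with library totals and 3 to 5 with a library left out, and against young vehicle 2 at an adjusted p under 0.01 and 3 to 4 with a library left out, where genes called numbered 8117 to 9436. The causes were not tested.

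With the replicate number as a block, 1312, 8958 and 9025 genes and 1, 3 and 4 ligases were called in the comparisons of age, GB and GB against young. The deviations of same-numbered libraries had correlations of -0.0282 to 0.0566 between groups, and a shared batch or handling was not tested. The block ended the calls of Fbxo31 with GB (adjusted p = 0.0555), Trim63 against young (0.0703) and Klf15 with age (0.0942).

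Log2 fold changes of opposite sign were as follows. With library totals Fbxo32 (-0.089) and Fbxo40 (-0.45, called) turned with GB, and Fbxo21 (-0.30), Fbxo40 (-0.49, called) and Cblb (-0.25) against young. With the length offset Fbxo31 (0.0101) turned with age, Fbxo21 (0.23), Fbxo31 (0.0048), Cblb (0.28) and Nedd4l (0.0776) with GB, Nedd4l (-0.0024) with age, and Fbxo32 (0.31) and Fbxo31 (0.0149) against young. Upper-quartile factors turned Fbxo21 (0.0775), Fbxo25 (0.0504) and Trim54 (0.0831) with GB and Fbxo25 (-0.0410) with age. A filter of 1 CPM in 3 libraries turned Fbxo21 (0.0333), Fbxo25 (0.0049) and Trim54 (0.0364) with GB. Limma-voom (0.20) and the block (0.0676) turned Fbxo32 against young. With both vehicle replicates 1 left out, chosen after seeing the data, Trim63 (-0.12), Traf6 (-0.0059), Nedd4l (-0.0438) and Trim54 (0.0037) turned with age and Trim54 (0.0483) with GB. Leaving out single libraries turned Fbxo31 (-0.0429 to 0.0491), Fbxo40 (-0.10 to 0.0267), Traf6 (-0.0534 to 0.21), Trim54 (-0.132 to 0.0704) and Fbxo25 (-0.0511 to 0.0435) with age, Fbxo21 (-0.0876 to 0.0363), Trim54 (-0.0800 to 0.0461) and Fbxo25 (-0.152 to 0.0956) with GB, and Fbxo32 (-0.52 to 0.21) and Fbxo40 (-0.0099 to 0.15) against young.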
